A study of Homo sapiens with 18 samples.

Results

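Prostaglandins are lipid signals that fibroblasts make and also respond to. The 10 genes described here cover that route from start to end: the phospholipases PLA2G4A and PLAAT3 (older name PLA2G16), the cyclooxygenases PTGS1 and PTGS2, the synthases PTGES and PTGIS, the receptors PTGER2, PTGER4 and PTGFR, and HPGD, which inactivates the products. They were named as a list, without a cutoff on their values, out of 35579 genes to which transcripts could be assigned, and they were picked with earlier results of these libraries known. Their number among the called genes therefore carries no weight of its own and is given as a description.

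The data are bulk poly(A) RNA sequencing of hiF-T cells, a wild-type line of fibroblast-like human cells from BJ skin fibroblasts in which the telomerase gene hTERT can be induced. All 18 libraries share that background. In 4 of them the cells carried a control guide (titled backbone, guides 1 and 2). The others carried a CRISPR guide for knockdown of CDKN1A (4 libraries, guides 1 and 2), KDM1A (4 libraries, guides 2 and 3) or SPP1 (6 libraries, guides 1, 2 and 3), with 2 biological replicates per guide. CDKN1A encodes the cell cycle inhibitor p21, KDM1A a histone demethylase and SPP1 the secreted protein osteopontin; the study asked which factors mark cells that can be reprogrammed to pluripotency. The labels do not say whether replicates are separate cultures, how a guide lowers the mRNA, or whether the control guides have a target, so p-values measure the spread between these libraries.

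Prostaglandin synthesis starts when a phospholipase releases arachidonic acid from membrane lipids. A cyclooxygenase turns it into prostaglandin H2, from which specific synthases make prostaglandin E2, prostacyclin and other products that act on G protein-coupled receptors of the same or neighbouring cells. PTGS2 is the inducible cyclooxygenase, which growth factors and inflammatory signals raise in fibroblasts, and PTGS1 is the form usually called constitutive.

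Libraries held between 11907000 and 17016000 estimated counts, and 13527 genes were tested. CDKN1A mRNA was at 58.2% of control in its knockdown (adjusted p = 0.00394, edgeR's quasi-likelihood test) and KDM1A at 52.9% in its own (adjusted p = 7.27e-06). SPP1 was at 61.4%, with 5 of 6 libraries below every control library, but did not pass the test (adjusted p = 0.0695). Of these 5, SPP1 guide 2 replicate 2 was only just below, since it and the lowest control library both read 55.2 CPM when rounded. The library labelled SPP1 guide 3 replicate 1 held 63 CPM of SPP1, inside the control range of 55.2 to 72.7, so its label is not borne out by the target and SPP1 knockdown here means the 6 libraries so labelled. Without it PLA2G4A (log2 0.91, adjusted p = 0.00615) and PTGS2 (log2 -0.66, adjusted p = 0.0396) were still called against control by edgeR, as was PTGER2 against both other knockdowns. Its omission ended the calls of PLA2G4A against CDKN1A (adjusted p = 0.0556) and of PTGER4 and PTGES against KDM1A knockdown (adjusted p = 0.0634 and 0.0608). Of 12 fibroblast markers, 11 had a mean above 1 TPM (a level per transcript length), and THY1 was near 0 at 0.353 TPM. Among markers of other skin cells, KRT1 was at 0 and KRT5 had 1 count in all; the keratinocyte sum was mostly KRT10, the leukocyte sum mostly CD68, and the summed melanocyte and endothelial markers were at most 6.33 and 3.21 TPM in a library.

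Promoter sequences of the 3 genes that passed the test in a knockdown against control are shown first, since PTGS2 and PLA2G4A are neighbours whose mRNA levels moved in opposite directions and PLAAT3 moved most. The 2 neighbours lie 148525 bases apart on chromosome 1 (GRCh38), with 1 annotated gene between them, the noncoding RNA gene PACERR. The sequences are from RefSeq (GRCh38.p14), 5′ to 3′ on the strand of the gene, and run from 250 bases before the RefSeq start to the start or to the first base that GENCODE 29 assigns to an exon of the gene. Windows are chr1:186680428-186680673 (minus strand, 246 bases) for PTGS2, chr1:186828699-186828948 (plus strand, 250 bases) for PLA2G4A and chr11:63614470-63614687 (minus strand, 218 bases) for PLAAT3. Both strands were searched for 8 patterns. Capitals mark matches to 4 of them, an NF-kappa-B-like pattern (GGG and CC with any 5 bases between), a C/EBP-like TTGCNNAA, the core TGACG of the cAMP response element, and TATAAA.
PTGS2: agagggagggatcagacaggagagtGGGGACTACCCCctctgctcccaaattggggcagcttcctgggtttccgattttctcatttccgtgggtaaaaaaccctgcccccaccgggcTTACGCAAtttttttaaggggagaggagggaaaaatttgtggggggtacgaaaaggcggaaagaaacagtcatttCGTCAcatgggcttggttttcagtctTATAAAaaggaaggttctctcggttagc
PLA2G4A: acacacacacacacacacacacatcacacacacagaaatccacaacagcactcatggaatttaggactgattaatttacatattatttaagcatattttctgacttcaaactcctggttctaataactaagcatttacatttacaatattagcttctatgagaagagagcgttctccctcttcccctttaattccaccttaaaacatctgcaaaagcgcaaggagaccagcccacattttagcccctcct
PLAAT3: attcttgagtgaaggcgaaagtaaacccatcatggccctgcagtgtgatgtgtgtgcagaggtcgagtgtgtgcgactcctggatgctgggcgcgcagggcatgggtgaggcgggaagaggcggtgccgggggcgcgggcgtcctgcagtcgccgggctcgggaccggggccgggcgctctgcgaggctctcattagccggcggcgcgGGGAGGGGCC

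The PTGS2 window held all 4 patterns: overlapping NF-kappa-B-like matches that begin 225 bases before the start, TTGCNNAA at 133, TGACG at 58 and TATAAA at 32. PLA2G4A held none of them and PLAAT3 only the NF-kappa-B-like pattern. The other patterns, the full cAMP response element TGACGTCA (which holds the core), TGANTCA of the Fos and Jun family, the E-box CACGTG and the GC box GGGCGG, were in none of the 3 windows. Over the 250 upstream bases of 35116 RefSeq promoters, TATAAA was found in 10.7%, TTGCNNAA in 9.1%, TGACG in 21.2% and the NF-kappa-B-like pattern in 54.4%, so the last is common; TGACGTCA was found in 1.6%, TGANTCA in 6.6%, CACGTG in 6.3% and GGGCGG in 42.6%. Among the 12 windows RefSeq gives for 9 of the genes (none for PTGIS), TTGCNNAA was found in 1, TATAAA in 2, TGACG in 3 and the NF-kappa-B-like pattern in 9. A match to letters is a description of the sequence and not a bound site.

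Per transcript length, PTGS2 was the most abundant of the 10 in control cells, at 46.2 ± 18.2 TPM (SD, n = 4), above 74.1% of the genes tested. PTGER4 (10.1 ± 1.90 TPM) and PLAAT3 (9.16 ± 1.71 TPM) came next and did not differ beyond their spread. PLA2G4A followed at 3.96 ± 0.0960 TPM and PTGFR at 2.58 ± 0.351 TPM. PTGES (1.01 ± 0.381 TPM), PTGER2 (0.461 ± 0.163 TPM) and PTGIS (0.297 ± 0.143 TPM) were low, and the last 2 overlapped. Both PTGS1 and HPGD were at the limit of detection.

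With KDM1A knockdown PLAAT3 had the highest mean at 25.6 ± 7.13 TPM (n = 4), beside 21.6 ± 4.65 TPM for PTGS2, a difference within the spread of the libraries. PLAAT3 read above PTGS2 with KDM1A guide 2 but not with KDM1A guide 3. With KDM1A guide 2 PLAAT3 read 31.3 and 32.2 TPM and PTGS2 17.5 and 20.1 TPM. With KDM1A guide 3 PTGS2 was higher in replicate 1, at 28.3 TPM beside 18.4 TPM for PLAAT3. In replicate 2 the genes were level, at 20.7 and 20.6 TPM. Over all KDM1A libraries PTGER4 was at 13.6 ± 3.59, PLA2G4A at 6.21 ± 0.587 and PTGFR at 2.51 ± 0.612 TPM. In CDKN1A knockdown PTGS2 was again highest (36.3 ± 5.13 TPM, n = 4), followed by PTGER4 (9.97 ± 0.895), PLAAT3 (6.33 ± 1.44) and PLA2G4A (5.56 ± 1.09), of which the last 2 overlapped. In SPP1 knockdown PTGS2 was at 26.1 ± 4.44 TPM (n = 6) and PTGER4 at 10.4 ± 1.32, while PLA2G4A (7.28 ± 1.32) and PLAAT3 (6.91 ± 2.19) overlapped each other and the low end of PTGER4. Summed over the 10 genes, a library held 55.1 to 102 TPM in control, 53.9 to 70.2 in CDKN1A, 64.2 to 76.7 in KDM1A and 47.4 to 62.2 in SPP1 knockdown.

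**Figure D1:**
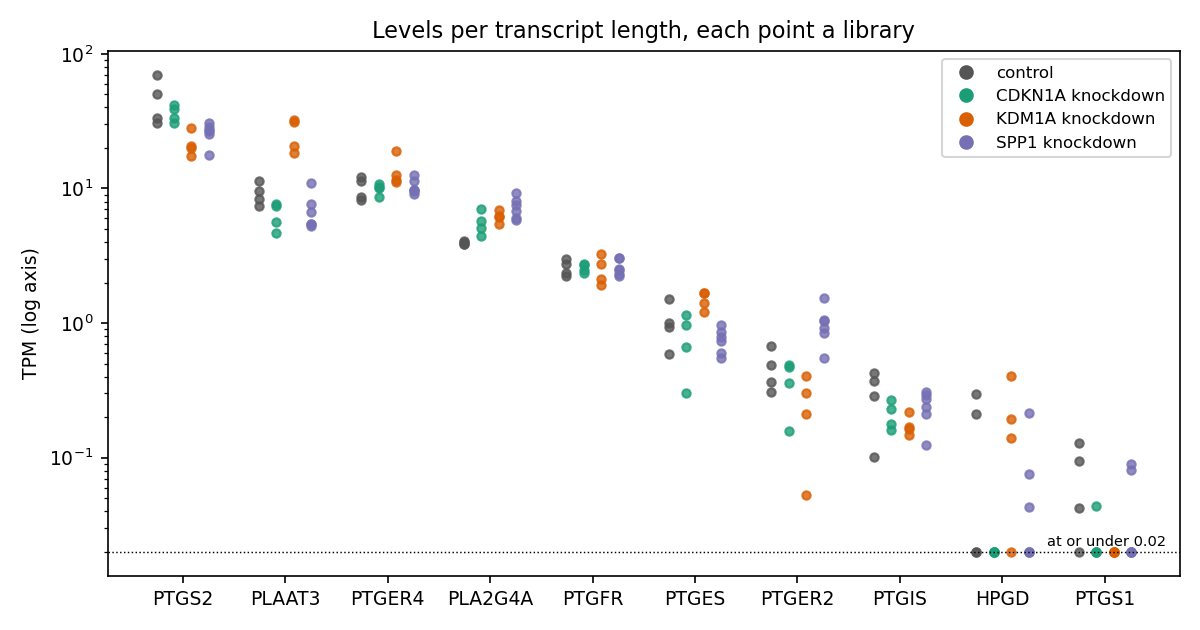
Level of each of the 10 genes in TPM on a log axis, 1 point per library, coloured by group; values at or under 0.02 are drawn on the dotted line. PTGS2 lies highest in the control libraries, with means of 46.2 TPM for PTGS2 and 10.1 TPM for PTGER4, while PTGS1 and HPGD are at 0 in 12 and 10 of 18 libraries.

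Among the 8 genes with enough counts to test, 3 differed between KDM1A knockdown and control: PLAAT3 and PLA2G4A rose and PTGS2 fell, against 9.05% of all genes called there. In SPP1 knockdown PLA2G4A rose and PTGS2 fell, 2 of 8 where 5.46% of all genes were called. In CDKN1A knockdown, where 2% of all genes were called, none of the 8 passed edgeR's test or DESeq2's; 3 of 8 had an unadjusted p under 0.05, as did 16.5% of all genes (22.6% in KDM1A and 20.6% in SPP1 knockdown). The median log2 fold change of the 8 was -0.34 in CDKN1A, 0.12 in KDM1A and -0.14 in SPP1 knockdown, beside -0.004, -0.011 and 0.004 over all genes. These 3 comparisons share their 4 control libraries, so they are not independent of each other, and in bulk RNA fewer cells that express a gene and less of its RNA per cell cannot be told apart.

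**Figure D2:**
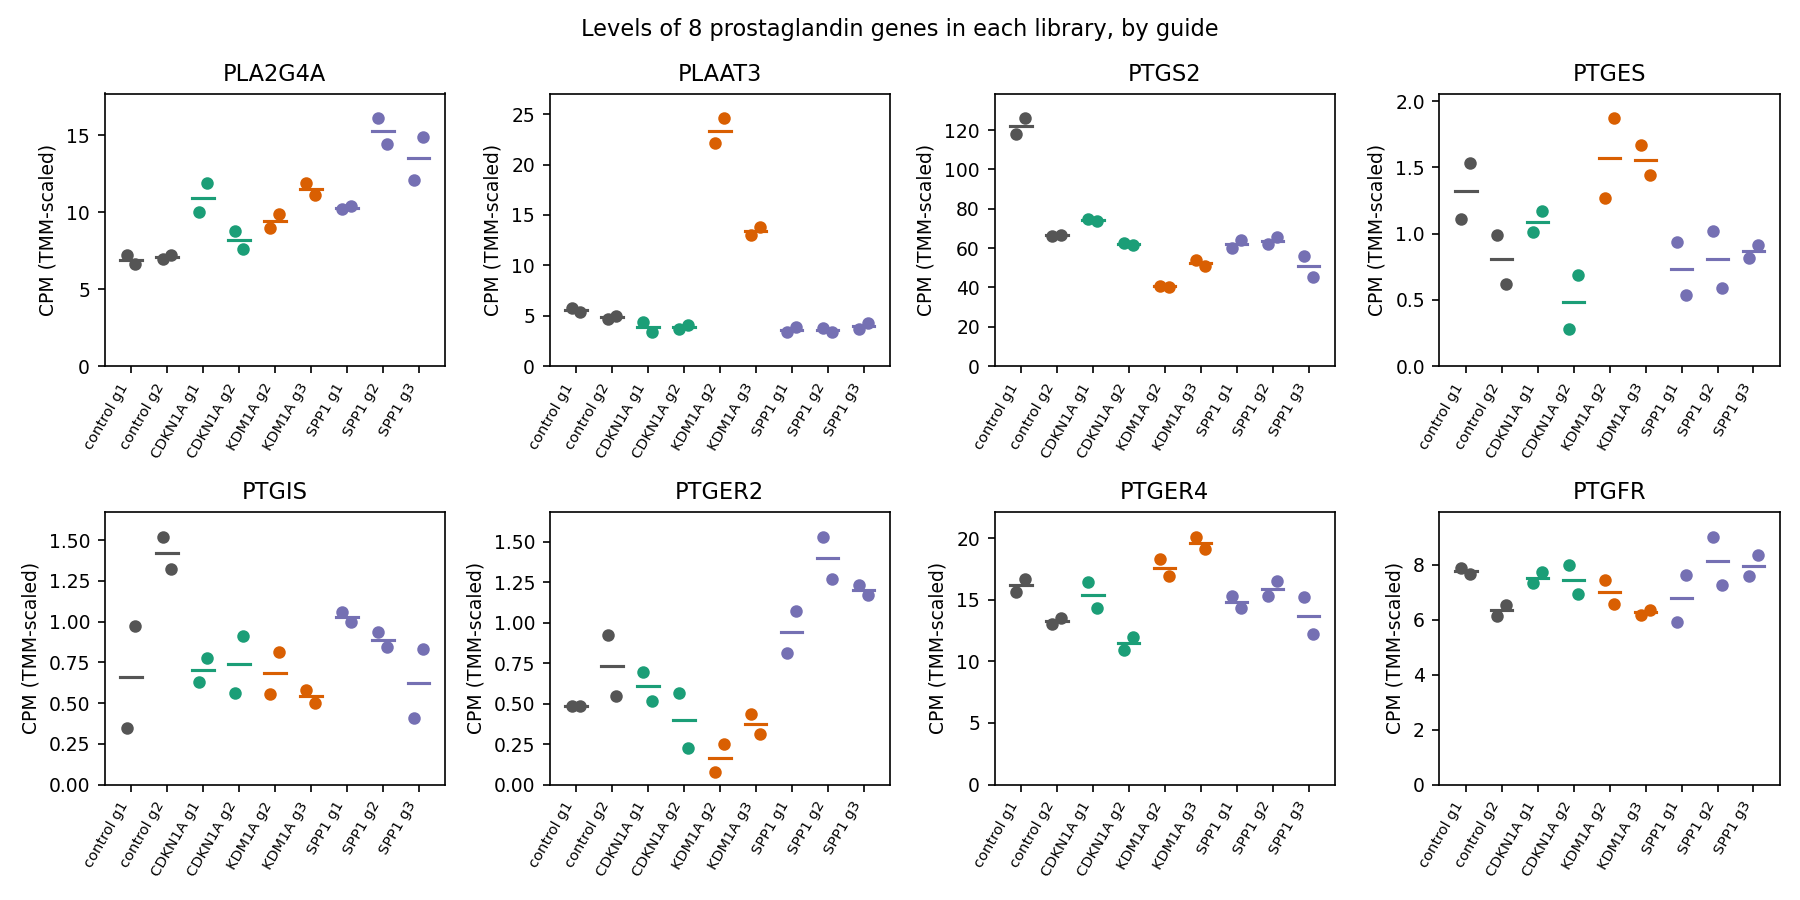
Level of the 8 tested genes in TMM-scaled CPM (axis from 0) in each library, grouped by guide (g1, g2, g3); points are libraries and bars the mean of the 2 libraries of a guide. PLAAT3 is at 13 CPM or more only in the KDM1A libraries, and PTGS2 is at 118 CPM or more only with control guide 1.

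PLAAT3, a phospholipase and acyltransferase abundant in fat tissue, showed the largest change. Its CPM (counts relative to the library total, scaled by TMM, a correction for library composition) were 5.74 and 5.36 with control guide 1 and 4.69 and 4.97 with control guide 2. The KDM1A libraries read 22.1 and 24.6 with guide 2 and 13 and 13.8 with guide 3. Each KDM1A library was thus above every control library, as held for 8.19% of all genes. The rise was 3.54-fold (log2 1.82 ± 0.17 SE, adjusted p = 2.04e-06, edgeR) and was called under all 35 alternative analyses run, with log2 values from 1.37 to 2.18. It was smaller with guide 3 than with guide 2 (log2 difference -0.80, adjusted p = 0.0012).

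PLAAT3 in the other knockdowns lay a little lower than in control. With CDKN1A guide 1 it read 4.36 and 3.37 CPM and with guide 2 3.67 and 4.11 CPM. The 6 SPP1 libraries ran from 3.37 through a median of 3.75 to 4.25 CPM. All of these were below every control library (6.65% of genes in CDKN1A and 3.37% in SPP1 knockdown), but neither difference passed the test (log2 -0.42 ± 0.19, adjusted p = 0.271, and -0.48 ± 0.17, adjusted p = 0.119, edgeR). Set against each other directly, PLAAT3 was higher in KDM1A than in CDKN1A knockdown by log2 2.24 (adjusted p = 2.95e-07) and lower in SPP1 than in KDM1A knockdown by a log2 difference of -2.30 (adjusted p = 4.49e-08). Counts of the 2 most abundant transcripts rose side by side in KDM1A knockdown, from 2.25 to 8.78 CPM for transcript 201 and from 1.95 to 7.34 CPM for transcript 203.

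PLA2G4A, the cytosolic phospholipase that releases arachidonic acid when calcium rises, read 7.19 and 6.62 CPM with control guide 1 and 6.94 and 7.22 with control guide 2. These 4 values lay close together, from 104, 95, 105 and 93 counts, and are too few to show how far the level varies. The KDM1A libraries read 8.95 and 9.86 with guide 2 and 11.9 and 11.1 with guide 3. SPP1 libraries ran from 10.2 through 13.3 to 16.1 CPM, and CDKN1A libraries read 10 and 11.9 with guide 1 and 8.75 and 7.60 with guide 2. So all 14 knockdown libraries were above every control library. Taken group by group, 8.19% of genes showed this in KDM1A, 2.96% in SPP1 and 6.46% in CDKN1A knockdown. The share of genes with all 14 above at once was not counted.

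The rise of PLA2G4A was 1.86-fold in SPP1 knockdown (log2 0.89 ± 0.14, adjusted p = 0.00288) and 1.5-fold in KDM1A knockdown (log2 0.58 ± 0.16, adjusted p = 0.0236), both by edgeR. In CDKN1A knockdown the difference of log2 0.46 ± 0.16 did not pass (adjusted p = 0.138). SPP1 exceeded CDKN1A knockdown by log2 0.43 (adjusted p = 0.0469), a call lost in 25 of 35 alternatives, 13 of which leave out a single library. SPP1 and KDM1A knockdown differed by log2 0.31 ± 0.14, which did not pass (adjusted p = 0.156). With SPP1 guide 2 PLA2G4A was higher than with SPP1 guide 1 (log2 0.56, adjusted p = 0.0357), where 2.4% of all genes were called. That call was lost with DESeq2, length offsets, the replicate block and each of 5 single libraries left out. SPP1 itself was lower with guide 1 (24.2 and 26.9 CPM) than with guide 2 (47.4 and 55.2 CPM). Without control guide 1 both rises kept their size but not the call (log2 0.87, adjusted p = 0.0732 for SPP1, and log2 0.56, adjusted p = 0.186 for KDM1A). Only 7 genes in all were then called for SPP1 and 417 for KDM1A, beside 738 and 1224 with both control guides. The KDM1A call was also lost without control guide 2, without KDM1A guide 3, and without 1 of 3 single libraries: control guide 1 replicate 2 (adjusted p = 0.0675) or KDM1A guide 3 replicate 1 (0.0665) or replicate 2 (0.0548). With the libraries of a guide summed, so that the guide is the unit, neither rise was called by edgeR. The values were then log2 0.89 (adjusted p = 0.247) for SPP1 and log2 0.59 (adjusted p = 0.212) for KDM1A. That fit called 1 gene in all for SPP1 and 162 for KDM1A, so losing a call there is not particular to PLA2G4A.

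**Figure D3:**
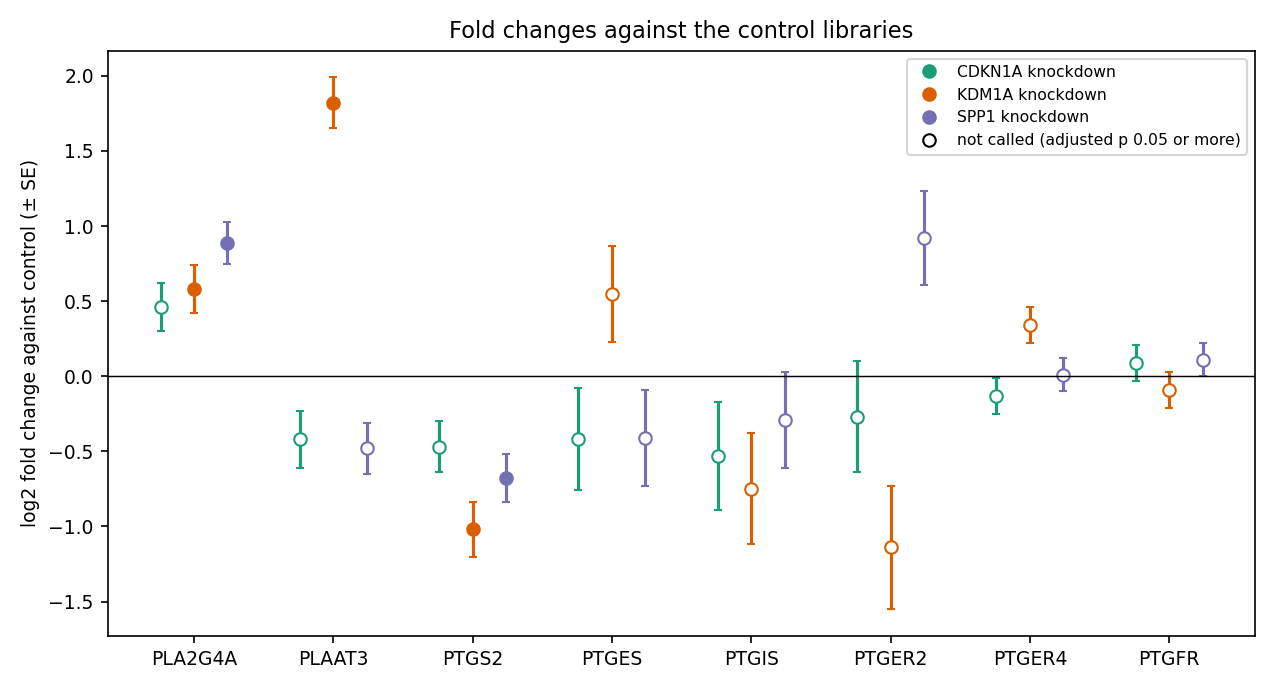
Log2 fold change (y axis) of the 8 tested genes in CDKN1A, KDM1A and SPP1 knockdown against the 4 control libraries, with bars for ± 1 SE; filled points have an adjusted p under 0.05 in edgeR. PLAAT3 in KDM1A knockdown stands highest at 1.82, PLA2G4A lies above 0 in all 3 knockdowns, and PTGS2 lies below 0 in all 3.

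PTGS2 fell in KDM1A and SPP1 knockdown, but its level in control depended on the guide. With control guide 1 it read 118 and 126 CPM, and with control guide 2 only 66.4 and 66.6 CPM, a difference of log2 -0.88 ± 0.08 (adjusted p = 3.48e-05, edgeR; 1.34% of all genes were called between the control guides). None of the other 7 genes tested was called there. The 2 replicates of a guide were close, so the control libraries formed 2 levels with nothing between them.

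The KDM1A libraries read 40.9 and 40.2 CPM of PTGS2 with guide 2 and 54.0 and 51.0 with guide 3. SPP1 libraries ran from 45.4 through 61.0 to 65.4 CPM. CDKN1A libraries read 74.8 and 73.6 with guide 1 and 62.8 and 61.8 with guide 2. Every KDM1A and every SPP1 library was below every control library (7.49% and 3.37% of genes), though the highest SPP1 library lay close under control guide 2, and the CDKN1A libraries lay on both sides of it.

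Against all 4 control libraries PTGS2 was at 49.3% of control in KDM1A knockdown (log2 -1.02 ± 0.18, adjusted p = 0.00112) and at 62.4% in SPP1 knockdown (log2 -0.68 ± 0.16, adjusted p = 0.0185), by edgeR. In CDKN1A knockdown the log2 difference was -0.47 ± 0.17 (adjusted p = 0.179). Against control guide 2 alone the values were -0.51 for KDM1A (adjusted p = 0.0453), -0.18 for SPP1 (adjusted p = 0.581) and 0.04 for CDKN1A (adjusted p = 0.95), the last with its sign turned. Against control guide 1 alone they were -1.38, -1.04 and -0.83 (adjusted p = 1.21e-05, 0.000378 and 0.00702). With control guide 2 alone, 417, 7 and 42 genes in all were called in KDM1A, SPP1 and CDKN1A knockdown. With both control guides these were 1224, 738 and 271. The SPP1 call was also lost without SPP1 guide 3 (-0.58, adjusted p = 0.0698) and without either library of control guide 1 (-0.56 and -0.50, adjusted p = 0.076 and 0.107). With the libraries of a guide summed, so that the guide is the unit, neither fall was called by edgeR. The values were then log2 -1.01 (adjusted p = 0.0752) for KDM1A and log2 -0.67 (adjusted p = 0.295) for SPP1. That fit called 162 genes in all for KDM1A and 1 for SPP1, so losing a call there is not particular to PTGS2.

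Direct comparison of the knockdowns, which leaves the control libraries out of the fold change, placed PTGS2 lower in KDM1A than in CDKN1A knockdown (log2 -0.55 ± 0.18, adjusted p = 0.0432), although this call was lost in 16 of 35 alternatives, 9 of which leave out a single library. SPP1 knockdown differed from KDM1A by log2 0.34 ± 0.17 (adjusted p = 0.205) and from CDKN1A by -0.21 ± 0.16 (adjusted p = 0.42), and neither passed. Between the KDM1A guides PTGS2 was higher with guide 3 (log2 0.37, adjusted p = 0.0158), the guide with the smaller rise of PLAAT3; these were the 2 of 8 genes called between guides 3 and 2, where 6.15% of all genes were called. KDM1A itself was lower with guide 3 (50.7 and 52 CPM) than with guide 2 (73.2 and 75 CPM), so the guide with less KDM1A mRNA had the smaller differences in both genes. Neither gene was called between these guides with length offsets, and the PTGS2 call was also lost with each of the 4 KDM1A libraries left out in turn. PTGS2-201, the transcript that held most of the counts, went from 81.0 ± 24.7 CPM in control to 40.4 ± 7.20 in KDM1A and 48.9 ± 6.82 in SPP1 knockdown.

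The 7 knockdown guides were then read singly against the mean of both control guides, an addition made after the values were seen. The sizes are given as a description without a test, because a fit by guide leaves the difference between guides out of its error. PTGS2 stood at log2 -0.28 and -0.53 with CDKN1A guides 1 and 2, at -1.15 and -0.78 with KDM1A guides 2 and 3, and at -0.54, -0.50 and -0.82 with SPP1 guides 1, 2 and 3. All 7 values lie below 0, but CDKN1A guide 1 read above control guide 2, as its CPM show. PLA2G4A stood at log2 0.65 and 0.23 with the CDKN1A guides, at 0.43 and 0.72 with the KDM1A guides, and at 0.56, 1.13 and 0.95 with the SPP1 guides. PLAAT3 stood at log2 -0.42 and -0.41, at 2.17 and 1.37, and at -0.52, -0.52 and -0.39 with the same guides in that order. The 7 values of a gene share their control libraries, so their common sign is not 7 independent observations.

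**Figure D4:**
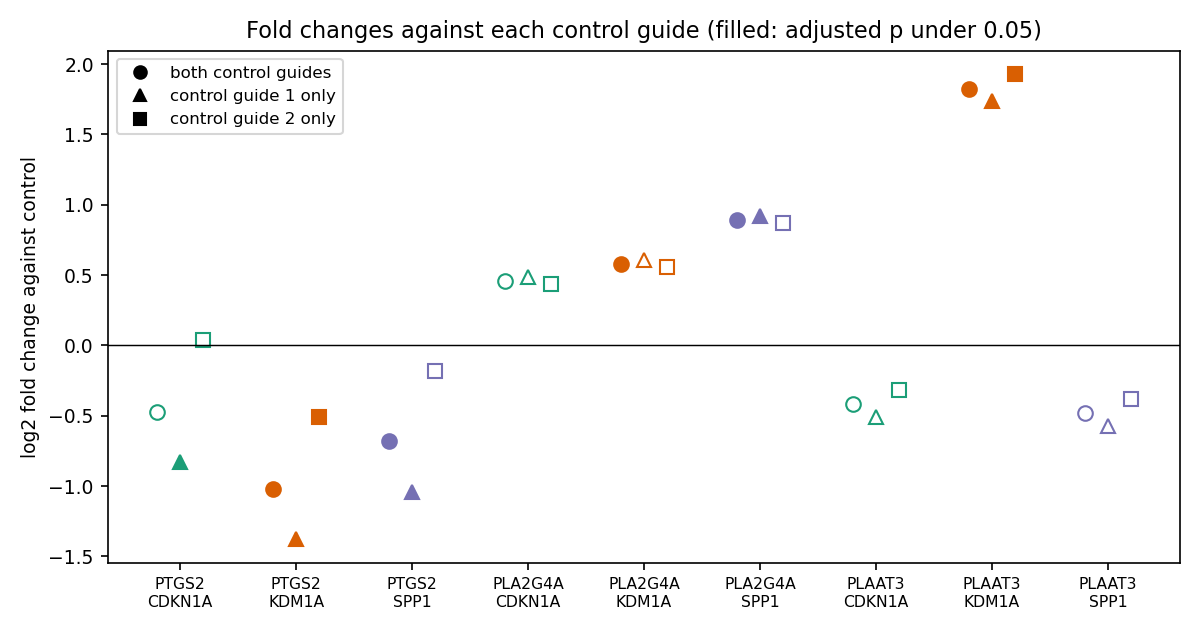
Log2 fold change of PTGS2, PLA2G4A and PLAAT3 in each knockdown against all control libraries (circles), against control guide 1 alone (triangles) and against control guide 2 alone (squares); filled symbols have an adjusted p under 0.05 in edgeR. PTGS2 shifts from -1.04 to -0.18 in SPP1 knockdown with the control guide used, while PLAAT3 in KDM1A knockdown stays between 1.74 and 1.93.

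FOSB, an immediate early gene on a list of genes that cAMP induces, split by control guide in the same way. It read 23.1 and 26.8 CPM with control guide 1 and 5.15 and 5.90 with control guide 2, and from 2.06 to 10.3 CPM over the knockdown libraries. Its calls in the knockdowns against control (log2 -1.98 ± 0.46 in CDKN1A, -2.49 ± 0.48 in KDM1A and -1.48 ± 0.39 in SPP1, adjusted p = 0.0325, 0.00221 and 0.0334, edgeR) therefore rest on control libraries at 2 levels. Its part in the PTGS2 result was not tested.

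PTGS1 had 12 counts over all 18 libraries and none in 12 of them, with at most 4 in a library. A count of 0 allows up to 3 counts, which is 0.187 to 0.255 CPM in these libraries, counting error only. Control libraries held 2, 2, 4 and 0 counts of PTGS1, CDKN1A libraries 0, 1, 0 and 0, and each KDM1A library 0. SPP1 libraries held 2, 0, 0, 1, 0 and 0. PTGS1 did not pass the count filter and was not tested, and a fall from this level was not detectable at this depth.

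PTGES, the inducible microsomal synthase of prostaglandin E2, was low and not called against control in any knockdown. Control libraries read 1.11, 1.53, 0.991 and 0.621 CPM, and KDM1A libraries 1.27, 1.87, 1.67 and 1.44. CDKN1A libraries read 1.01, 1.17, 0.282 and 0.684, and SPP1 libraries ran from 0.535 through 0.867 to 1.02 CPM. Each KDM1A library exceeded each SPP1 and each CDKN1A library, a separation whose share over all genes was not counted. PTGES was lower in SPP1 than in KDM1A knockdown (log2 -0.96 ± 0.30, adjusted p = 0.0426, edgeR), a call lost in 18 of 35 alternatives, 9 of which leave out a single library. KDM1A against CDKN1A knockdown narrowly missed (log2 0.97 ± 0.33, adjusted p = 0.0531). PTGIS, which makes prostacyclin, ranged from 0.346 to 1.52 CPM over all libraries with full overlap between groups, and its log2 differences from control ran from -0.75 ± 0.37 to -0.29 ± 0.32 without a call.

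Between knockdowns, 3 of the 8 genes were called for KDM1A against CDKN1A (14.9% of all genes), 2 for SPP1 against CDKN1A (12%) and 4 for SPP1 against KDM1A (11.9%). The receptors among them were PTGER4 in the first, PTGER2 in the second and both in the third, and no receptor of the 3 was called against control. PTGER2, a receptor for prostaglandin E2 that raises cAMP, read 0.484, 0.488, 0.925 and 0.544 CPM in control and 0.0792, 0.249, 0.436 and 0.314 in KDM1A libraries. SPP1 libraries ran from 0.810 through 1.20 to 1.53 CPM and CDKN1A libraries read 0.695, 0.519, 0.564 and 0.228. The lowest SPP1 library was above the highest KDM1A library, a separation whose share over all genes was not counted. The control and CDKN1A libraries lay mostly between the SPP1 and KDM1A libraries. The gene held at most 18 counts in a library.

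PTGER2 was 4.17-fold higher in SPP1 than in KDM1A knockdown (log2 2.06 ± 0.36, adjusted p = 0.000891, edgeR), a call lost in 1 of 35 alternatives, without KDM1A guide 2 (log2 1.62, adjusted p = 0.0579). It was 2.28-fold higher in SPP1 than in CDKN1A knockdown (log2 1.19 ± 0.32, adjusted p = 0.022), a call lost in 8 of 34 alternatives. Among these were the omission of CDKN1A guide 1 replicate 2 (adjusted p = 0.0542), guide 2 replicate 1 (0.0546) or guide 2 replicate 2 (0.0893), and DESeq2 gave no adjusted p. Against control, neither the log2 difference of 0.92 ± 0.31 in SPP1 (adjusted p = 0.0956) nor that of -1.14 ± 0.41 in KDM1A knockdown (adjusted p = 0.0936) passed.

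PTGER4, the other cAMP-raising prostaglandin E2 receptor and far more abundant here, read 15.6, 16.7, 13 and 13.5 CPM in control. KDM1A libraries read 18.3, 16.9, 20.1 and 19.1, CDKN1A libraries 16.4, 14.3, 10.9 and 12, and SPP1 libraries ran from 12.2 through 15.2 to 16.5 CPM. Every KDM1A library exceeded every other library, by a narrow margin over the highest control library. Against the control libraries alone 8.19% of genes showed this, and the share against all other libraries was not counted. The rise was called against CDKN1A knockdown (log2 0.47 ± 0.12, adjusted p = 0.00973), SPP1 was called lower than KDM1A knockdown (log2 -0.33 ± 0.11, adjusted p = 0.0486), and the difference from control was not called (log2 0.34 ± 0.12, adjusted p = 0.0768; edgeR). The call for SPP1 against KDM1A was lost in 21 of 35 alternatives, 12 of which leave out a single library, and that for KDM1A against CDKN1A in 4. PTGER4 lies inside the span of TTC33 on the opposite strand, and the labels do not say whether counting used the strand, so reads from exons they share could not be told apart. Against control the rise in KDM1A knockdown was called in 6 of 35 alternatives, DESeq2 among them.

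PTGFR, the receptor for prostaglandin F2 alpha, held between 5.92 and 9.01 CPM in all libraries, with overlapping groups. Its log2 differences from control were 0.09 ± 0.12 in CDKN1A, -0.09 ± 0.12 in KDM1A and 0.11 ± 0.11 in SPP1 knockdown, none called. HPGD, the dehydrogenase that inactivates prostaglandins, had 11 counts over all libraries and none in 10. It did not pass the count filter and was not tested, and a fall from this level was not detectable at this depth.

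Other genes of the route were read from lists chosen by function. Of 7 other receptors and receptor-associated genes, 3 could be tested, and PTGIR, the prostacyclin receptor, rose in KDM1A knockdown from 5.55 ± 0.726 to 10.8 ± 1.01 CPM (log2 0.95 ± 0.17, adjusted p = 0.00135, edgeR). No other of the 3 was called in KDM1A knockdown against control, where 9.05% of all genes were called. PTGIR was also higher in KDM1A than in CDKN1A (log2 0.95, adjusted p = 0.00084) and SPP1 (adjusted p = 0.000535) knockdown. TBXA2R, the thromboxane receptor, was at 14.4 ± 0.657 CPM in KDM1A knockdown against 12.1 ± 0.395 in control, which did not pass (adjusted p = 0.0516), and exceeded CDKN1A knockdown by log2 0.49 (adjusted p = 0.000335). PTGER1, which signals through calcium, was higher in KDM1A than in SPP1 knockdown, at 2.38 ± 0.58 against 0.918 ± 0.324 CPM (adjusted p = 0.00798). PTGDR was at 0 in all libraries.

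Of 9 other prostanoid synthases 6 were tested, and 2 fell in KDM1A knockdown, where 9.05% of all genes were called: PRXL2B (log2 -0.30 ± 0.09, adjusted p = 0.0383), which makes prostaglandin F2 alpha, and AKR1B1 (log2 -0.25 ± 0.07, adjusted p = 0.0334), which can do so as well. None was called in CDKN1A or SPP1 knockdown by edgeR or DESeq2, with 2 and 0 at an unadjusted p under 0.05 (over all genes 16.5% and 20.6%). PTGES3, a chaperone also described as a prostaglandin E synthase, was the most abundant of this list at a mean of 291 TPM. Among 12 other phospholipases A2, 6 were tested and none was called against control by either tool (2, 1 and 0 at an unadjusted p under 0.05 in CDKN1A, KDM1A and SPP1 knockdown, beside 16.5%, 22.6% and 20.6% of all genes); PLA2G12A was highest at 27.8 TPM and did not differ in CDKN1A knockdown beyond its SE (log2 -0.01 ± 0.09). PLA2G15, a lysosomal enzyme, was higher in KDM1A than in CDKN1A knockdown (log2 0.39 ± 0.08, adjusted p = 0.00181).

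Of 6 genes for transport and breakdown 5 were tested, and none was called against control by edgeR or DESeq2 (2, 2 and 0 at an unadjusted p under 0.05, beside the same shares); PTGR1, a reductase of prostaglandin breakdown products, was highest at 54.3 TPM. In the lipoxygenase branch, which turns arachidonic acid into leukotrienes, 6 of 13 genes were tested, and LTA4H (log2 0.22 ± 0.06, adjusted p = 0.0301) and MGST2 (log2 0.68 ± 0.20, adjusted p = 0.0374) rose in KDM1A knockdown (9.05% of all genes called), while ALOX5, which starts that branch, was at 0 in all libraries. None of the 6 was called in CDKN1A or SPP1 knockdown by either tool, with 0 and 2 at an unadjusted p under 0.05 (16.5% and 20.6% of all genes). Of 12 genes that cAMP induces 11 were tested. In CDKN1A, KDM1A and SPP1 knockdown 1, 2 and 2 of them were called by edgeR, beside 2%, 9.05% and 5.46% of all genes. Besides FOSB, PDE4B, which degrades cAMP, rose in KDM1A knockdown (log2 0.46 ± 0.13, adjusted p = 0.0237) and RGS2 fell in SPP1 knockdown (log2 -0.52 ± 0.15, adjusted p = 0.0482). PDE4B also differed in level between the control guides, at 18.3 and 18.2 CPM with guide 1 and 22.2 and 26.9 with guide 2, and the highest of these lay above 1 KDM1A library, at 25 CPM. DESeq2 did not call RGS2 (adjusted p = 0.0581).

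Some markers of cell type differed in KDM1A knockdown too. The fibroblast markers LUM (log2 3.79 ± 0.29), COL3A1 (log2 2.85 ± 0.27), DCN (log2 1.90 ± 0.33) and PDGFRB (log2 0.51 ± 0.15) rose, 4 of 11 tested where 9.05% of all genes were called, as did KRT15 (log2 1.23 ± 0.17). The summed fibroblast markers were 12200 to 13200 TPM in KDM1A and 12400 to 14000 TPM in control libraries, and the summed keratinocyte markers 180 to 187 and 150 to 174 TPM. Their part in the rise of PLAAT3 and the fall of PTGS2 was not tested.

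The genes whose mean log2 CPM per guide followed each called gene most closely were taken from those of mean log2 CPM 3 or more. For PLAAT3 they were SLC25A29 (Pearson r = 0.976), PLPBP (0.965) and CD9 (0.965). For PTGS2 they were PIP4K2A (0.961), C16orf70 (0.928) and PURB (0.928), and for PLA2G4A they were KYAT3 (0.953), ARHGAP35 (0.947) and SUCLA2 (0.947). Among the 8 genes themselves, PTGES and PTGER4 were closest (r = 0.89), PLAAT3 and PTGER2 ran most opposite (r = -0.79), and PTGS2 and PLA2G4A had r = -0.46. Each r is over 9 guides that share a cell line and, in part, a target, and is a description without a test.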

How the data were processed

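Poly(A) RNA of 18 libraries was quantified by the authors with kallisto on GRCh38, per the submitters' processing notes; its version was not given in the sources used here. Per the file headers, the authors deposited an estimated count for each of 188753 transcripts (expected counts, unscaled). The deposited TPM are those estimates scaled by transcript length and library. Kallisto divides reads among like transcripts, so values of single transcripts are less certain than gene sums.

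Estimated counts were summed per gene through GENCODE 29 (90% of transcripts matched; 2.49 to 2.62% of counts in a library were on unmatched ones and left out) and rounded to whole numbers. Genes were kept by filterByExpr (count minimum 10), 13527 in all. With edgeR 4.0.16 (R 4.3.3), TMM scaling and a quasi-likelihood F test with 1 coefficient per group over 18 libraries were used; guides were compared in a fit with 1 coefficient per guide. P-values were adjusted by Benjamini-Hochberg over all genes tested, with 0.05 as the threshold for a call. On simulated counts for KDM1A knockdown against control (13316 genes), 90 of 100 genes changed 1.5-fold and 90 of 100 changed 2-fold were recovered. The run, which held both sizes, gave 7 false calls. The simulated counts were drawn with 1 spread for all genes and with no difference between guides of a group. That spread was the common dispersion of the fit by guide (0.00478), beside 0.00869 in the fit by group. The simulation therefore does not give the rate of false calls in the real libraries. Alternatives were DESeq2 1.42.0, RLE factors, no filter, only 2 groups, a coefficient per guide, summed libraries, length offsets, a replicate block, and each guide and library left out.

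Members and lists were chosen with earlier results of these data known. All 10 members are described; a member called in any comparison is given by library, other lists by up to 4 called genes of smallest p against control, or else the most abundant one, and likeness by the 3 genes of highest r. The PTGER1, TBXA2R and PLA2G15 values, ALOX5 and PTGDR lie outside that rule and were chosen after their values were seen. Promoters are from RefSeq.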

Additional observations from a re-analysis of the deposited data

Results flagged for a closer look

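Of 32 groups of libraries checked (8 genes in 4 groups), 2 held a library set apart from the rest of its group by a gap that is large for the group's range; chance gives about 1 in 20 groups. PTGER2 with control guide 2 replicate 1 was at 0.925 CPM (14 counts), while the other control libraries were at 0.484 to 0.544 (7 counts each). PTGIS in the library labelled SPP1 guide 3 replicate 1, the one whose SPP1 lay in the control range, was at 0.409 CPM (6 counts). The other SPP1 libraries were at 0.833 to 1.06 (10 to 17 counts), and control libraries ran from 0.346 to 1.52 CPM. At counts this low the counting error is large, and a link to the SPP1 level was not tested.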

How the results depend on the processing

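Over 35 alternatives and 23 log2 fold changes, 671 of 801 values kept their direction and call, 109 lost the call, 20 gained it and 1 turned its sign (PTGS2 in CDKN1A knockdown without control guide 1, log2 0.04). The cause of each loss was not tested. Summed and reduced fits also had fewer libraries. Member counts below stand beside the number of all genes called in the same setting, which was kept only for comparisons between groups. With a coefficient per guide, 3 members were called in CDKN1A and 4 in SPP1 knockdown against control (1172 and 1761 genes). With the libraries of a guide summed, 1 member was called for KDM1A against control (162 genes) and against CDKN1A (437 genes). In that setting 0 were called for SPP1 against control (1 gene) and against CDKN1A (111 genes), and 2 against KDM1A (244 genes). DESeq2 called 1 for SPP1 against CDKN1A (1881 genes), where it gave PTGER2 no adjusted p, and 0 between SPP1 guides 2 and 1. Length offsets gave 0 between KDM1A guides and 0 between SPP1 guides 2 and 1. They gave 1 for SPP1 against CDKN1A (765 genes) and 2 for SPP1 against KDM1A (766 genes). Without the filter, 1 was called between SPP1 guide 3 and each other SPP1 guide. In that setting 1 was called for SPP1 against CDKN1A (1234 genes) and 2 for SPP1 against KDM1A (1272 genes). In fits of only 2 groups, 1 was called for SPP1 against control (390 genes) and against CDKN1A (1305 genes).

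Without control guide 1, 0 members were called for SPP1 against control (7 genes) and 1 for SPP1 against CDKN1A (1641 genes). Without control guide 2, 1 was called for CDKN1A against control (216 genes) and 1 for SPP1 against CDKN1A (1521 genes). Without CDKN1A guide 1, 1 was called for SPP1 against CDKN1A (912 genes). Without CDKN1A guide 2, 0 were called for that comparison (299 genes) and 1 for KDM1A against CDKN1A (668 genes). Without KDM1A guide 2 or 3, SPP1 against CDKN1A gave 1 (1652 and 1682 genes). SPP1 against KDM1A gave 1 without KDM1A guide 2 (261 genes) and 2 without KDM1A guide 3 (1951 genes). Without SPP1 guide 2 or 3, SPP1 against CDKN1A gave 0 (1547 and 1274 genes) and SPP1 against KDM1A 2 (1129 and 1408 genes). SPP1 against control gave 1 without SPP1 guide 3 (433 genes). With single libraries left out, members called ranged from 0 to 2 for SPP1 against CDKN1A, 2 to 4 for SPP1 against KDM1A, KDM1A against control and KDM1A against CDKN1A, and 1 to 2 for SPP1 against control. Between guides they ranged from 0 to 2 for CDKN1A, 1 to 2 for KDM1A, 0 to 1 for SPP1 guide 2 against 1, 0 to 2 for guide 3 against 1 and 0 to 1 for guide 3 against 2.

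With the replicate number as a block, 0 members were called between SPP1 guides 2 and 1. In that fit 1 was called for SPP1 against CDKN1A and 2 for SPP1 against KDM1A, and 172 genes for CDKN1A against control. Deviations of like-numbered libraries correlated at -0.12 to 0.07 over 36 pairs of guides. Each of these values is over all genes tested, so a pairing that acts on few genes would not show in it.

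Counts over all genes moved more. The 271 genes of CDKN1A against control ranged from 1 (summed libraries) to 1172 (a coefficient per guide), with 553 by DESeq2, 588 in 2 groups, 71 with length offsets and 42 without control guide 1. The 1224 of KDM1A ranged from 162 to 2229 in the same settings, with 568 with length offsets and 417 without control guide 1. The 738 of SPP1 ranged from 1 to 1761, with 390 in 2 groups, 321 with length offsets, 7 without control guide 1. With 1 library left out, the CDKN1A count ran from 54 (CDKN1A guide 2 replicate 2) to 447 (SPP1 guide 3 replicate 2), the KDM1A count fell to 774 without control guide 1 replicate 2, and the SPP1 count to 184 without that library, 363 without control guide 1 replicate 1 and 445 without SPP1 guide 2 replicate 2. Between knockdowns, the 2022 of KDM1A against CDKN1A ranged from 437 to 3049, the 1628 of SPP1 against CDKN1A from 111 to 2839 and the 1611 of SPP1 against KDM1A from 244 to 2674, again from summed libraries to a coefficient per guide. With 1 library left out, they were 1290 without CDKN1A guide 2 replicate 2 and 1345 without KDM1A guide 2 replicate 2 for KDM1A against CDKN1A. They were 862 and 863 without CDKN1A guide 2 replicate 1 or 2 for SPP1 against CDKN1A, and 801 and 775 without KDM1A guide 2 replicate 1 or 2 for SPP1 against KDM1A. Low counts limit PTGS1, HPGD, PTGES, PTGIS and PTGER2.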
